A study of Mus musculus with 6 samples.

Results

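The 5 genes described here, Isg15, Uba7, Ube2l6, Herc6 and Usp18, encode the mouse ISG15 modifier and the enzymes that attach it to proteins and remove it again. They were taken by gene name from the 54532 genes of the expression table, and they were chosen with the values of these same libraries known, so that their levels and differences below are a description and carry no test. ISG15 is a small protein related to ubiquitin whose gene is strongly switched on by type I interferon. It is activated by an E1 enzyme, passed to an E2 enzyme, and joined by an E3 ligase to lysines of target proteins, a reaction named ISGylation. A protease cuts it off again. In macrophages, bacterial LPS acts through TLR4 and leads to interferon-β, which then turns on ISG15 and its enzymes together with the antiviral effector genes.

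Poly-A RNA was sequenced from peritoneal macrophages, elicited with thioglycolate in wild-type male C57BL/6J mice aged 6 to 8 weeks, with 2 libraries in each of 3 groups. Control cells were untreated. Model cells received LPS for 5.5 h and then 2 mM ATP for 0.5 h, a sequence that primes and then activates the NLRP3 inflammasome. In MUS, 50 µM muscone, a macrocyclic ketone, was given on top of LPS and ATP, 5 h after the former and 0.5 h before the latter. Muscone was thus present only late in the exposure to LPS. The labels do not say whether the 2 libraries of a group came from separate animals or cultures, so that the spread between them may be technical. They give replicate 1 and replicate 2 of each group as batch 1 and batch 2.

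Levels are fragments scaled by exon length and by a per-million scale of each library (FPKM), and between 15526321 and 17135442 fragments per library fell on genes. That scale was not the plain fragment total. It was 1.34 to 1.45 times the total in Control and 0.909 to 0.998 times in Model and MUS. All 8 macrophage markers examined, among them Adgre1 and Csf1r, had a mean of at least 1 FPKM, with a summed level of 11961 to 13746 FPKM in Control, of 9574 to 14283 for Model and of 11397 to 13236 for MUS. Most of this sum was Lyz2, with 7275 to 12007 FPKM, and single markers went opposite ways. Csf1r had 208 and 272 FPKM in Control and 83.4 to 105 in the stimulated libraries, while Cd14 had 125 and 406 against 1140 to 1748, and Fcgr1 had 18.3 and 7.87 against 134 to 161. None of the markers of B cells, T and NK cells, mast cells, dendritic cells or mesothelial cells reached that mean. Of 5 neutrophil markers, S100a8 and Mmp8 did, while S100a9, Ly6g and Retnlg were listed at 0 in every library. The summed level of these 5 was 20.2 to 34.1 FPKM in Control, 60.2 to 113 in Model and 54.7 to 68.7 in MUS, and the part of these markers in the differences below was not tested. The higher sum came from S100a8, with 13.5 and 30.6 FPKM in Control and 50.3 to 110 in the stimulated libraries (Mmp8 had 6.62 and 3.48 against 2.63 to 4.69). Of 4 eosinophil markers, only Siglecf passed. In bulk RNA, fewer responding cells and less RNA per cell cannot be told apart.

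The control regions of Isg15 and of Ube2l6 are shown first. Isg15 had the highest level of the 5 genes in the stimulated libraries. Ube2l6 was the 1 gene of the 5 whose Model and MUS libraries did not overlap. Over all genes tested, 21% were lower in MUS without overlap and 21.2% were higher, so that this trait is common. Each window runs from 250 bases before to 50 bases after the annotated start (RefSeq, GRCm38.p6), written 5′ to 3′ along the gene, with capitals marking the core of the interferon-stimulated response element, searched as GAAA followed 2 bases later by a second GAAA. The Isg15 window lies on the minus strand at chr4:156200769-156201068 and the Ube2l6 window on the plus strand at chr2:84798578-84798877.
Isg15: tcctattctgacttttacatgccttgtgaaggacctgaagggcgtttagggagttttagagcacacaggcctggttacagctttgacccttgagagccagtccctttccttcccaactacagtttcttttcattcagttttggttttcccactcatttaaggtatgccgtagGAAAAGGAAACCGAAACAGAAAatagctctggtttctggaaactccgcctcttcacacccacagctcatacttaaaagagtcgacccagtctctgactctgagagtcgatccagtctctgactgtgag
Ube2l6: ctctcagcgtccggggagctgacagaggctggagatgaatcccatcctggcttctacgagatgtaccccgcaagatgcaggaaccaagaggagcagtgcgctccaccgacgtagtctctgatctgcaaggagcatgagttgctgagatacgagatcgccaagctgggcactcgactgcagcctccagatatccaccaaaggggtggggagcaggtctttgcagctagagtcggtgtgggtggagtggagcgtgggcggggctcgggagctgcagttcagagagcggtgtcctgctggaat
In Isg15 the capitals cover 3 overlapping matches on the strand of the gene, GAAAAGGAAA, GAAACCGAAA and GAAACAGAAA, which together run from base 78 to base 57 before the start. The Ube2l6 window holds 0 matches on either strand. The windows of Uba7 (chr9:107975317-107975616, plus strand) and Herc6 (chr6:57580742-57581041, plus strand) hold 0 as well. For Usp18 no window was at hand. Among all 32851 promoter windows, 3.44% hold this motif on either strand. The core of the gamma-activated site, searched as TTC and GAA with 3 bases between them, was found in none of the 4 windows and in 8.30% of all windows. An absent match says only that this motif is not in this stretch.

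For comparison, 30-base stretches are printed from promoters of 4 antiviral genes, again with the match in capitals, which reads as its reverse complement (TTTC, 2 bases, TTTC) where the match is on the opposite strand. These 4 had the highest Model mean among the listed interferon-stimulated effectors whose window holds the motif. Each therefore shows a match by choice. The lone capital that ends the Ifit1 stretch begins a further match. They are Rsad2 (chr12:26456553-26456582, minus), the antiviral enzyme viperin, Ifit1 (chr19:34640775-34640804, plus) and Ifit3 (chr19:34583363-34583392, plus), members of the IFIT family of RNA-binding and partner proteins, and Bst2 (chr8:71537583-71537612, minus), the tetherin that holds budding virus at the cell surface.
Rsad2: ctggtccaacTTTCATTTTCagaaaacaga
Ifit1: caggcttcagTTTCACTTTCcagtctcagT
Ifit3: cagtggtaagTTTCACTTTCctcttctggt
Bst2: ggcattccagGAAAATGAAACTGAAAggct
Of 25 interferon-stimulated effector genes listed for comparison, 18 had a window, and 11 of these (61.1%) hold the motif. Among all 27025 genes with a window, 3.99% hold it.

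Isg15, the modifier itself, is encoded on chromosome 4 (156199424 to 156200818, minus strand, GRCm38) by a gene with 2 exons. Its level was 1.45 FPKM in Control replicate 1 and 20.1 in Control replicate 2. The 2 Model libraries had 1083 and 592 FPKM, and the 2 MUS libraries 1000.3 and 1169. Every stimulated library was thus far above both Control libraries, while Model and MUS overlapped. The mean was 10.8 ± 13.2 FPKM in Control, 837 ± 347 in Model and 1084 ± 119 in MUS (SD, n = 2). On the log2(FPKM + 1) scale, on which all fold changes here were fitted, the difference was 6.80 (SE 0.91) in Model vs. Control and 0.43 (SE 0.91) in MUS vs. Model. Of the 9794 genes with a mean of at least 1 FPKM, 9 (0.0919%) had a difference from Control in Model as large as that of Isg15 or larger, itself included. The low Control level rests on 25 fragments in replicate 1 and 347 in replicate 2, against 6936 to 14351 in the stimulated libraries.

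Uba7, the E1 enzyme that activates ISG15, lies on chromosome 9 (107975505 to 107984060, plus strand). It had the lowest level of the 5 genes in each stimulated library. The Control libraries had 2.30 and 3.87 FPKM, the Model libraries 21.9 and 36.5, and the MUS libraries 24.0 and 31.0. Both MUS values fell between the 2 Model values. The means were 3.09 ± 1.11, 29.2 ± 10.3 and 27.5 ± 4.89 FPKM, and the log2 difference was 2.87 (SE 0.34) in Model vs. Control and -0.05 (SE 0.34) in MUS vs. Model.

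Ube2l6, the E2 enzyme that carries ISG15 from the E1 to the ligase, lies on chromosome 2 (84798828 to 84810335, plus strand). Its Control libraries had 10.6 and 35.1 FPKM, its Model libraries 282 and 152, and its MUS libraries 60.9 and 92.0. Both MUS libraries were below both Model libraries and above both Control libraries. The mean was 22.8 ± 17.3 FPKM in Control, 217 ± 92.1 in Model and 76.4 ± 22.0 in MUS, so that the MUS mean was 35.3% of the Model mean. The log2 difference was 3.34 (SE 0.58) in Model vs. Control and -1.45 (SE 0.58) in MUS vs. Model. Within batch 1 the latter was -2.19, and within batch 2 it was -0.71. The study itself lists Ube2l6 among the genes that changed in both of these comparisons, and it is not independent evidence here.

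Herc6, which in mice serves as the main ISG15 ligase (E3), lies on chromosome 6 (57581000 to 57664632, plus strand). The Control libraries had 1.00 and 5.46 FPKM, the Model libraries 45.1 and 51.8, and the MUS libraries 54.0 and 49.6. The 4 stimulated libraries were close to each other, and Model and MUS overlapped. The means were 3.23 ± 3.15, 48.4 ± 4.77 and 51.8 ± 3.13 FPKM, with a log2 difference of 3.78 (SE 0.51) in Model vs. Control and 0.10 (SE 0.51) in MUS vs. Model.

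Usp18, the protease that removes ISG15 and that also binds IFNAR2 and dampens interferon signalling, lies on the same chromosome (121245906 to 121270917, plus strand). The Control libraries had 1.76 and 7.74 FPKM, the Model libraries 351 and 241, and the MUS libraries 252 and 241. Model replicate 1 stood above the other 3 stimulated libraries, which were nearly level. The means were 4.75 ± 4.23, 296 ± 77.4 and 246 ± 7.82 FPKM, and the log2 difference was 5.89 (SE 0.54) in Model vs. Control and -0.24 (SE 0.54) in MUS vs. Model.

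**Figure D1:**
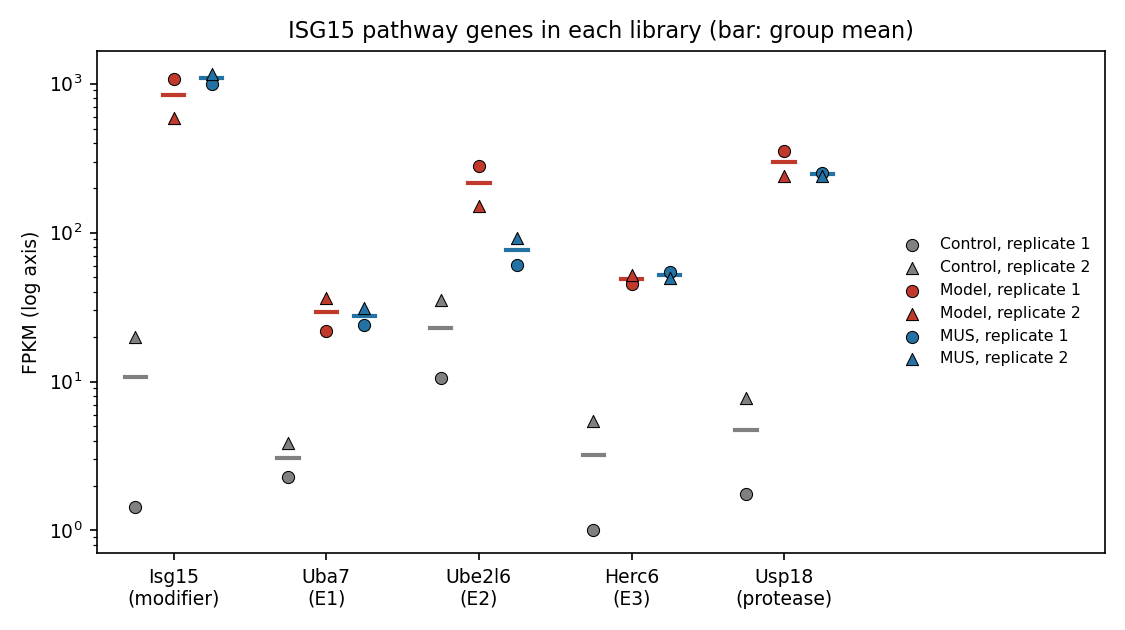
Level of each of the 5 genes in each of the 6 libraries, in FPKM on a log axis, with the group mean as a bar. The Model and MUS points lie above the Control points for each gene. Of the 5 genes it is Ube2l6 whose MUS points (60.9 and 92.0 FPKM) lie below both Model points (282 and 152 FPKM). The same holds for 21% of all genes tested.

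Between Model and Control the 5 genes moved in one direction. Their mean FPKM was 77.9 times the Control mean for Isg15, 62.4 times for Usp18, 15.0 times for Herc6, 9.49 times for Ube2l6 and 9.46 times for Uba7. A differentially expressed gene (DEG) was called at an adjusted p of at most 0.05 (limma, Benjamini-Hochberg over the 9794 genes) together with a log2 fold change beyond 1 in size. In Model vs. Control, 15.1% of all genes were DEGs, 9.5% higher and 5.56% lower, and all 5 members were among the higher ones. Their libraries did not overlap, as was the case in this direction for 32.6% of all genes. Since the genes were chosen on these values, nothing is read from these counts. The median log2 difference of the 5 was 3.78, against 0.04 over all genes tested. With the values scaled by total fragments instead of the deposited scale, the median of all genes moved to -0.40, and the DEGs split into 641 higher and 1530 lower instead of 930 and 545. With quantile normalization they split into 707 and 715. The 5 members were still called higher under both scalings, and with total fragments their median log2 difference was 3.35. Without Model replicate 1 the call of Ube2l6 was lost, which left 4 of 5. With no filter on low values, 30192 genes were tested and 260 were DEGs, and of the members Uba7 and Usp18 were called.

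The size of these differences depended on the Control libraries. For each of the 5 genes Control replicate 2 was higher than Control replicate 1, 13.9 times for Isg15, 5.45 times for Herc6, 4.41 times for Usp18, 3.30 times for Ube2l6 and 1.68 times for Uba7. Over all genes tested the median log2 difference between these 2 libraries was 0.04, and in 5.93% of genes replicate 2 exceeded replicate 1 by more than 1 on the log2 scale. Set against Control replicate 2 alone, the Model mean was still 41.7 times as high for Isg15, 38.3 times for Usp18, 8.87 times for Herc6, 7.54 times for Uba7 and 6.18 times for Ube2l6. Within batch 1 the log2 difference of Isg15 was 8.79 and within batch 2 it was 4.82. For Usp18 the 2 values were 7.0 and 4.79, for Ube2l6 4.60 and 2.08, and for Herc6 4.52 and 3.03. For Uba7 they were 2.80 and 2.94, the closest pair of the 5.

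**Figure D2:**
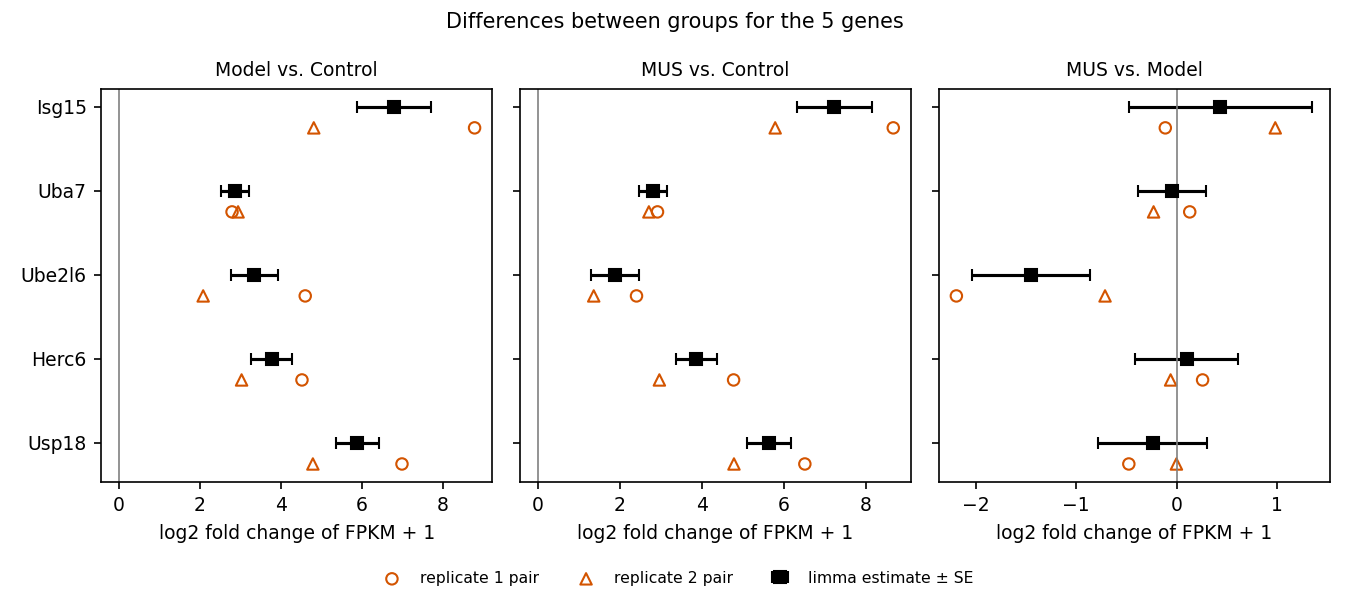
Difference between groups of each gene in log2(FPKM + 1), as the limma estimate with its SE (square and line) and as the difference within the replicate 1 libraries (circle) and within the replicate 2 libraries (triangle). Both batches lie above 0 for each gene against Control. In MUS vs. Model, Ube2l6 is below 0 in both batches (-2.19 and -0.71), as is Usp18 (-0.48 and -0.00377), whose second value is near 0.

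Between MUS and Model, which addresses what late muscone changed in stimulated cells, 0 genes were DEGs (0%) and so were 0 of the 5 members. The study, which used DESeq2 at the same thresholds, did report DEGs in this comparison, mostly lower in MUS. The count of 0 given here was obtained with limma on FPKM, and the reason for the difference from the study was not tested. At an unadjusted p under 0.05 there were 825 genes (8.42%), 569 of them lower in MUS, and the smallest adjusted p was 0.139 in limma. With limma-voom on the recovered fragments there were also 0 DEGs. Without Model replicate 2 there were 31, and with only the 2 compared groups in the model there were 7, none of them a member. The MUS mean was 129% of the Model mean for Isg15, 107% for Herc6, 94.2% for Uba7 and 83.2% for Usp18, each with overlapping libraries. Ube2l6, at 35.3%, was the 1 member without overlap. Of all genes, 21% were lower in MUS without overlap and 21.2% were higher without overlap, so that nothing is read from this count. Its log2 difference of -1.45 was reached or passed by 78 genes (0.796%), itself included. The median log2 difference of the 5 members was -0.05, against 0.01 over all genes. Without Model replicate 1 the difference of Ube2l6 was -1.01, and without Model replicate 2 it was -1.90.

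In MUS vs. Control, which shares its libraries with the other comparisons, 20.2% of all genes were DEGs, 11.3% higher and 8.91% lower, and 4 of the 5 members were called higher. Isg15 differed by 7.24 (SE 0.91), Usp18 by 5.65 (SE 0.54), Herc6 by 3.87 (SE 0.51) and Uba7 by 2.82 (SE 0.34) on the log2 scale. Ube2l6 was at 1.89 (SE 0.58) and was not called. Its value was 1.07 without Control replicate 1 and 2.71 without Control replicate 2, and that of Isg15 was 5.68 and 8.79. With the replicate number as a block in the model Ube2l6 was called too, which made 5 of 5. The MUS libraries of all 5 genes lay above the Control libraries, as did those of 39.6% of all genes. Without MUS replicate 1, the 2 members still called were Uba7 and Usp18, while the count over all genes dropped from 1980 to 184. Without Control replicate 2, all 5 were called.

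Since FPKM are per length, the genes can also be set against each other within a library. In both Control libraries Ube2l6 had the highest FPKM of the 5, with 62.0% and 48.6% of their summed FPKM. In each Model and MUS library the order was Isg15, Usp18, Ube2l6, Herc6 and Uba7. Isg15 made up 8.44% and 27.8% of the sum in Control, 60.7% and 55.2% of that in Model, and 71.9% and 73.9% of that in MUS. The share of Ube2l6 was 15.8% and 14.1% in Model and 4.38% and 5.82% in MUS, with no overlap between the groups. That of Usp18 was 19.7% and 22.5% in Model, against 18.1% and 15.2% in MUS. The FPKM of Isg15 per FPKM of Ube2l6 was 0.136 and 0.572 in the Control libraries, 3.84 and 3.91 for Model, and 16.4 and 12.7 for MUS. This ratio does not depend on the scaling of a library, and its 2 values within Model were close although both genes differed between the Model libraries. With 2 libraries against 2, an exact permutation test cannot give a p below 0.333, and none was run.

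**Figure D3:**
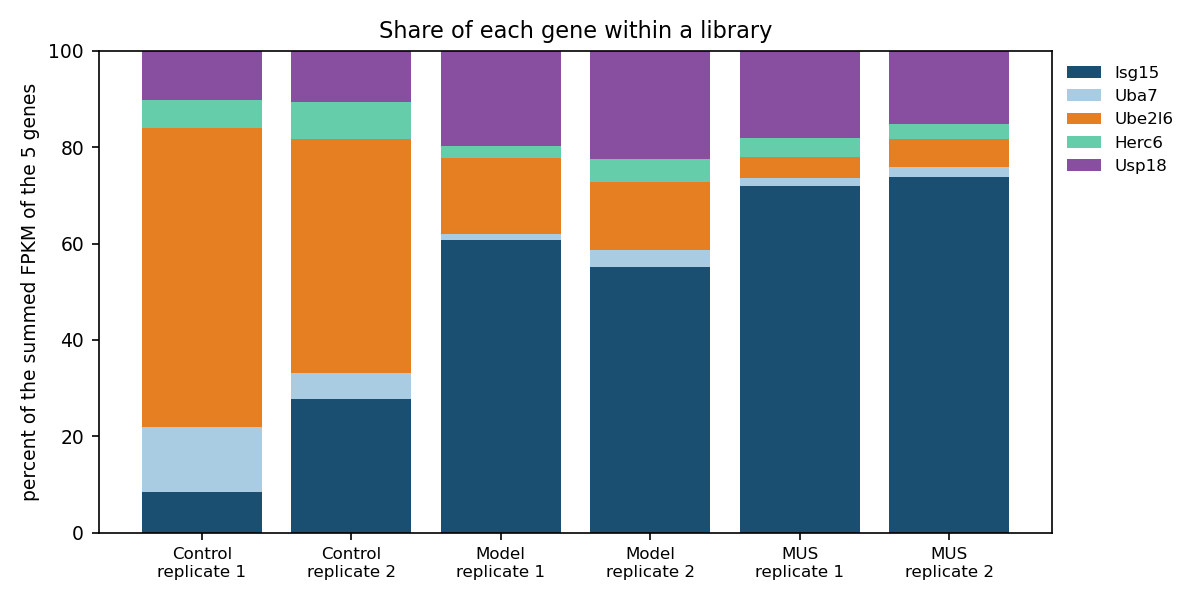
Share of each of the 5 genes in their summed FPKM, in percent, with 1 stacked bar per library. Ube2l6 takes 62.0% and 48.6% in Control and 4.38% and 5.82% in MUS, where Isg15 takes 71.9% and 73.9%.

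Neighbours in the order of levels could not always be told apart. In Control, the ranges of all 5 genes overlapped with those of at least 1 other gene, and the order differed between the 2 libraries below Ube2l6. In Model, the Ube2l6 range (152 to 282 FPKM) overlapped with that of Usp18 (241 to 351), while in MUS the ranges of the 5 genes were separate. Over the 6 libraries the log2(FPKM + 1) of Isg15, Uba7, Herc6 and Usp18 had Pearson correlations of 0.961 to 0.994 with each other, and Ube2l6 had 0.842 to 0.897 with these 4. These 6 points hold 3 group levels and the shared difference between the Control libraries, and the correlations only describe these together.

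The genes whose pattern over the 6 libraries was most like the mean pattern of the 5 members were Oas1g (r = 0.999), Oas1a (0.999), Serpina3g (0.999), H2-T10 (0.998) and Med1 (0.998), out of 9789 compared. Oas1a and Oas1g encode 2-5 oligoadenylate synthetases, which sense double-stranded RNA, and they share 57.6% and 45.7% of their 50-base stretches with other genes, mostly each other, so that their levels are not independent. H2-T10 shares 50.4%, and its level is uncertain for the same reason. Of all genes compared, 712 had an r of at least 0.95. By single member, Xaf1 was most like Isg15 (0.998), Mapk1ip1l most like Uba7 (0.998), Tent4a most like Herc6 (1.000) and Scimp most like Usp18 (1.000). Dlat, a subunit of the pyruvate dehydrogenase complex, was most like Ube2l6 (0.998), with 7.85 and 8.40 FPKM in MUS, between the 6.01 and 7.08 of Control and the 9.93 and 9.19 of Model. For Ube2l6, 120 genes reached an r of 0.95, against 553 to 824 for each of the other 4 members.

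Counts for other genes that act on ISG15 or ubiquitin are given next, where 15.1% of all genes were called in Model vs. Control. The 5 comparison lists below were chosen with earlier results of these data known, so that their counts are a description. Of 8 other ligases and proteases reported to act on ISG15, 6 passed the FPKM filter, and 1 was called higher in Model vs. Control. This was Trim25, a ligase that acts on ISG15 and ubiquitin and takes part in RIG-I signalling, with 48.8 and 43.1 FPKM in Control, 155 and 166 for Model, and 148 and 159 for MUS. Its log2 difference was 1.79 (SE 0.29, adjusted p = 0.00929 in limma). The 5 others, Arih1, Usp5, Usp14, Usp16 and Usp21, were not called. The median of the 6 was -0.05.

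Of ubiquitin itself and the closest relatives of the members, 0 of 10 were called in Model vs. Control, and the median log2 difference was 0.15. Ube2l3, the ubiquitin E2 closest to Ube2l6, had 31.4 and 28.2 FPKM in Control, 27.9 and 26.3 for Model, and 25.9 and 26.8 for MUS. Between Model and Control its log2 difference was -0.13 (limma adjusted p = 0.730), and between MUS and Model it was -0.04 (adjusted p = 0.984). The FPKM of Ube2l6 per FPKM of Ube2l3 was thus 0.339 and 1.24 in the Control libraries, 10.1 and 5.76 for Model, and 2.35 and 3.43 for MUS. Uba1, the ubiquitin E1, was at 0.57 (adjusted p = 0.240), and the HERC ligases Herc3 and Herc4 were at -0.50 (adjusted p = 0.161) and 0.22 (adjusted p = 0.499) in Model vs. Control. Rps27a, which encodes ubiquitin fused to a ribosomal protein, had 48.5 and 167 FPKM in Control and 414 and 89.0 in Model, with overlap. Ube2l3 and Rps27a share 32.2% and 26.3% of their 50-base stretches with other genes, which makes their levels uncertain. Among 8 E1 enzymes of other ubiquitin-like systems, 1 was called, Atg7, the E1 of autophagy, which fell by 1.39 on the log2 scale (SE 0.32, adjusted p = 0.0279). This call was lost on leaving out any single library other than Control replicate 2.

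Against 9.5% of all genes called higher and 5.56% lower in Model, 6 of 12 genes of type I interferon signalling were called higher and 0 lower. Their median log2 difference was 1.71. The largest called difference was that of Irf7, the transcription factor that amplifies interferon production, at 4.68 (SE 0.41, adjusted p = 0.00157), with 3.08 and 8.07 FPKM in Control and 152 and 157 in Model. The smallest was that of Ifnar2, a chain of the interferon receptor, at 1.43 (SE 0.28, adjusted p = 0.0163). Ifnb1, which encodes interferon-β, was listed at 0 in both Control libraries and had 3.02 and 0.688 FPKM in Model and 1.32 and 0.985 in MUS. Ifnb1 passed the filter on low values only through the stimulated libraries, so that no test of it is given. Without Model replicate 1, 3 genes of this list were called, and without Control replicate 2, 8 were.

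The 25 interferon-stimulated effectors were all called higher in Model, where 9.5% of all genes were. Set against 3.78 for the 5 members, their median log2 difference was 3.90. They ranged from Cmpk2, a mitochondrial nucleotide kinase (7.17, SE 0.86, adjusted p = 0.00388), to Eif2ak2, the RNA-activated kinase PKR (2.80, SE 0.51, adjusted p = 0.0133). Cmpk2 had 1.19 and 16.7 FPKM in Control, again higher in replicate 2, and 966 and 826 in Model. With no filter on low values, 6 of the 25 effectors and 2 of the 12 signalling genes were called.

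In MUS vs. Model, 0 genes of these 5 lists were called, with limma adjusted p-values from 0.257 to 0.995. The list medians were 0.02 for the other ISG15 ligases and proteases, 0.11 for ubiquitin and the relatives, and 0.03 for the other E1 enzymes. They were 0.02 for interferon signalling and 0.30 for the effectors, against 0.01 over all genes. Of the effectors 19 of 25 were higher in MUS, each with a limma adjusted p of at least 0.760, and nothing is read from this count. The lowest adjusted p was that of Socs1, a feedback inhibitor of JAK kinases, with 12.0 and 9.90 FPKM in Model and 2.46 and 3.13 in MUS. Its log2 difference of -1.65 (SE 0.25) was the 1 list value below that of Ube2l6. In MUS vs. Control, 1 of 6 other ISG15 ligases and proteases, 0 of 8 other E1 enzymes, 7 of 12 signalling genes and 24 of 25 effectors were called higher, and 1 gene, Atg7, was called lower. Over all genes, 11.3% were called higher and 8.91% lower. The ligase called was again Trim25. Without MUS replicate 1 the higher calls in these 4 lists were 0, 0, 1 and 5, and without MUS replicate 2 the signalling list had 1. Among the 8 other E1 enzymes the Atg7 call was lost without Control replicate 1 or either MUS library.

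**Figure D4:**
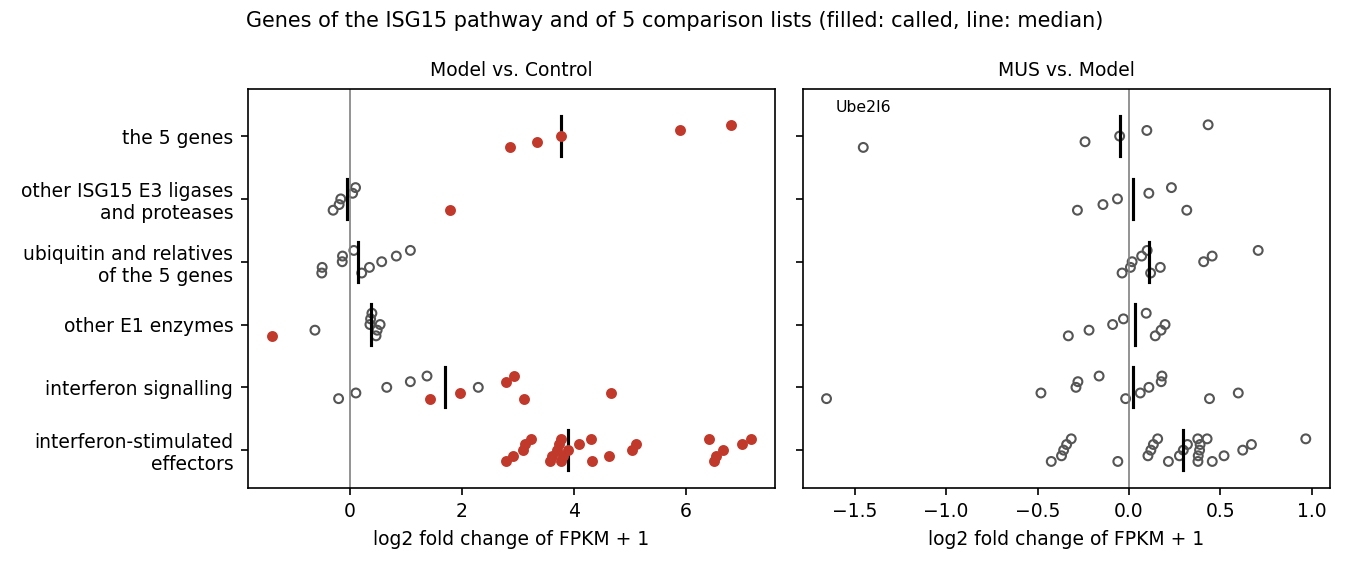
Difference of each gene in log2(FPKM + 1), as fitted with limma, for the 5 members and the 5 comparison lists, in Model vs. Control (left) and MUS vs. Model (right). Filled points were called DEGs and vertical lines are medians. At left the members (median 3.78) and the effectors (3.90) lie to the right of the relatives (0.15). At right no point is filled, and Ube2l6 (-1.45) and Socs1 (-1.65) lie farthest to the left.

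The sequence of the 5 members is shared with other genes only in part. Between 2.52% of the 50-base stretches of Uba7 and 12.5% of those of Herc6 also occur in a transcript of another gene. For Herc6 this is mostly Gm45193, an overlapping transcript listed at 0 in every library. For Ube2l6 the share is 8.32%, most of all with Gm17167, whose level is not given here. Exons of Uba7 overlap with Gm20661 over 233 bases, and Gm20661 had 0 to 6 fragments per library. Exons of Usp18 overlap with the antisense Gm44148 over 124 bases, and Gm44148 was listed at 0 throughout.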

How the data were processed

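The authors deposited 1 table of FPKM with a column for each of the 6 libraries, and 0 columns had no sample. The study's methods name RSEM for the FPKM and DESeq2 for its DEGs, while the submitters' processing notes name HISAT2, featureCounts 1.5.0-p3 and GRCm39, with no role given. Gene positions in the deposited table are those of GRCm38, since 98.3% of the 54409 identifiers shared with GENCODE M21 have the same start and end. Strandedness is not given in the sources used here.

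FPKM times gene length was a whole number of fragments for 100% of values (tolerance 0.1). One fragment on a 1 kb gene was worth 0.0437 to 0.0709 FPKM, and the limit that a count of 0 allows, 3 fragments, 0.131 to 0.213 FPKM, for counting error only. The per-million scale was 1.34 to 1.45 times the fragment total in Control and 0.909 to 0.998 times in Model and MUS.

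In R 4.3.3, limma 3.58.1 (lmFit, contrasts.fit, eBayes with trend, two-sided) was fitted to log2(FPKM + 1), for the 9794 genes that averaged 1 FPKM or more, over all libraries, with 3 residual and 4.04 prior degrees of freedom. Fold changes on this scale understate those of low genes. The fit was tested on simulated data. Alternatives were other filters, a pseudocount of 0.1, other scalings, only the groups compared, no trend, limma-voom on the recovered fragments, the replicate number as a block, and each library left out. The labels give the replicate number as a batch, by which the libraries can be paired, but do not say what the batch stands for. The differences between replicates 2 and 1 correlated across genes at 0.12 (Control and Model), 0.14 (Model and MUS) and -0.09 (Control and MUS).

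The 5 genes, the comparison lists and the markers were chosen with earlier results of these data known. Also named are the called genes with the largest and smallest change of each list in Model vs. Control, any list gene called in MUS vs. Model, the genes most like the members, and the nearest relatives. Shared sequence was counted as 50-base stretches of transcripts. Promoter windows came from RefSeq and matched 4 of the 5 genes. Protein sequences were not analysed here. A result on 1 list gene was left out.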

Additional observations from a re-analysis of the deposited data

How the results depend on the processing

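The direction of all 5 members in Model vs. Control and MUS vs. Control held under every alternative run, and 0 members were called in MUS vs. Model under each of them. The median log2 difference of the members ran from 2.93 to 4.62 in Model vs. Control and from 3.03 to 4.72 in MUS vs. Control on leaving out single libraries, with both ends set by the 2 Control libraries, and from -0.21 to 0.04 in MUS vs. Model. The members called ran from 4 to 5 in Model vs. Control, and in MUS vs. Control from 2 to 5. With the replicate number as a block, which pairs the libraries by batch, the call of Ube2l6 in MUS vs. Control (5 of 5 members) was gained and no other member's call changed, while DEGs over all genes numbered 1582, 4 and 2125 in Model vs. Control, MUS vs. Model and MUS vs. Control, against 1475, 0 and 1980. Ube2l6 was also called in MUS vs. Control with a filter at 5 FPKM and with limma-voom. With no filter on low values, 2 members, 0 of the other E1 enzymes, 2 signalling genes and 6 effectors were called in Model vs. Control, and 0 relatives, 0 E1 enzymes, 1 signalling gene and 10 effectors in MUS vs. Control, as DEGs over all genes numbered 260 and 456 of 30192 tested. With fragment totals, 2 other E1 enzymes were called in Model vs. Control, and 0 relatives, 2 E1 enzymes and 4 signalling genes in MUS vs. Control, where DEGs split into 736 higher and 1922 lower instead of 1107 and 873. Quantile normalization split them into 885 and 1102 and left 0 relatives called. The E1 count was 0 in Model vs. Control with only the compared groups in the model, and 2 in MUS vs. Control with a pseudocount of 0.1 or with limma-voom. The cause of these changes was not tested.

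On leaving out single libraries, the calls in Model vs. Control ran from 692 to 2077 over all genes, from 0 to 1 for the other E1 enzymes, from 3 to 8 for signalling and from 18 to 25 for the effectors. In MUS vs. Control they ran from 184 to 2398 over all genes, from 0 to 1 for the other ISG15 ligases and proteases, from 0 to 1 for the relatives, from 0 to 2 for the E1 enzymes, from 1 to 9 for signalling and from 5 to 25 for the effectors. In MUS vs. Model DEGs ran from 0 to 31. Where this left a group with 1 library, that library was assumed to vary like the others. Genes near 1 FPKM rest on few fragments.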

Other observations

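Gm19244, a processed pseudogene within the Herc6 locus on the opposite strand that shares no exon base with Herc6, was noticed after its values were seen. It had 0 fragments in both Control libraries, 6 and 23 in Model and 52 and 59 in MUS, or 1.68, 5.87, 13.6 and 14.4 FPKM in the stimulated libraries. It passed the filter on low values only through the stimulated libraries and was chosen for this pattern, so that no test is given. Over the same 4 libraries Herc6 had 45.1, 51.8, 54.0 and 49.6 FPKM. With no stated strand, reads of Gm19244 and intronic reads of Herc6 cannot be told apart.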
